A study of Homo sapiens with 4 samples.

Results

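The genes described are 36 genes of heparan sulfate: the proteoglycan core proteins that carry the chains, and the enzymes that build, sulfate, edit and cut them. They were chosen as a list of symbols, and a gene was taken as the row of the deposited expression table whose platform annotation held that symbol alone. All 36 of 36 were found, each with 1 row, among 22085 gene symbols represented by 1 row each and 67539 rows in all. The values come from TC-71, an established Ewing sarcoma (EWS) cell line, profiled on the GeneChip Human Transcriptome Array with 2 arrays per group. In one group the cells were left untreated (TC-71, replicates A and B). In the other they received 10 µg of exosomes (EXOs) per 5000 cells for 24 h, in medium without serum, and these vesicles came from TC-71 cells in which CD99, a surface glycoprotein of EWS cells, had been silenced by shRNA (TC-71 + TC-CD99neg EXOs, with C and D as replicates). Per the labels, these are biological replicates. No group that received EXOs of unsilenced cells was among the arrays, and the medium of the untreated cells is not given, so the arrival of EXOs, their CD99neg origin and the lack of serum cannot be told apart.

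Heparan sulfate is a long sugar chain attached to syndecans and glypicans at the cell surface and to perlecan and agrin in the matrix. Chains are started by xylosyltransferases, lengthened by the EXT enzymes, and then modified in the Golgi by N-sulfation, epimerization and O-sulfation. After export, the SULF enzymes remove sulfates and heparanase cuts the chain. The sulfation pattern sets which growth factors are held, and the chains are a known docking site for exosomes on recipient cells.

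The values are log2 signals after quantile normalization by the authors. A gene was called when it changed by a fold of at least 1.5 (0.58 on the log2 scale) with a Benjamini-Hochberg adjusted p of at most 0.05 in limma, fitted to all 67539 rows as exposed minus untreated cells. Intervals given with changes are 95% intervals of single genes from the same fit. With 2 arrays against 2, an exact permutation test of a single gene could not give a two-sided p below 0.333. Array medians lay between 5.38 and 5.45, the correlation across rows was 0.997 within the untreated pair and 0.998 within the exposed pair, and it ran from 0.988 to 0.990 between groups. All 8 of 8 Ewing sarcoma markers lay above the array median on all arrays, and CD99 itself, which was silenced in the donor cells and not in the profiled ones, was at 9.93 and 9.98 untreated and at 10.24 and 10.25 after exposure. In the same list PAX7 was called higher (0.63) and NR0B1 lower (-0.62). The adjusted p alone was passed by STEAP1 with -0.56, by CD99 with 0.29 and by NKX2-2 with 0.23. Of 21 measured markers of fibroblasts, leukocytes, endothelial and epithelial cells, 11 lay below the array median on all arrays (among them PTPRC, PECAM1, EPCAM and PDGFRA) and 9 above it on all arrays (COL1A1, COL1A2, CD68, ITGAM, VWF, CDH5, KRT8, KRT18 and KRT19). The row named KRT8 has an identifier that points to chromosome 8 (PSR08005831.hg.1), not the chromosome of this gene, so it may not measure KRT8. CD68 was called lower (a change of -0.65, adjusted p = 0.00587 in limma) and DCN passed the adjusted p with 0.52. In RNA of whole cultures, fewer cells of a type and less RNA per cell cannot be told apart.

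Among the 36 heparan sulfate genes, SULF1 fell and NDST4 rose past both thresholds, and 34 were not called. SULF1 takes sulfate groups off finished chains outside the cell, and NDST4 is one of the enzymes that put the first sulfate groups on. The 2 calls are 5.56% of the genes, beside 2.1% of all symbols, of which 1.13% were called higher and 0.964% lower. The adjusted p alone was passed by 6 of the 36 (16.7%), 5 with higher and 1 with lower signal, beside 12.8% of all symbols (5.84% higher and 6.98% lower). Both exposed arrays lay above both untreated arrays for 12 of the 36 (33.3%) and below them for 7 (19.4%), and the groups overlapped for 17. Over all symbols these shares were 25.9% and 26.6%. The median change was 0.01 over the 36 and 0.00 over all symbols. With so few genes, these shares are a description of the list.

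**Figure D1:**
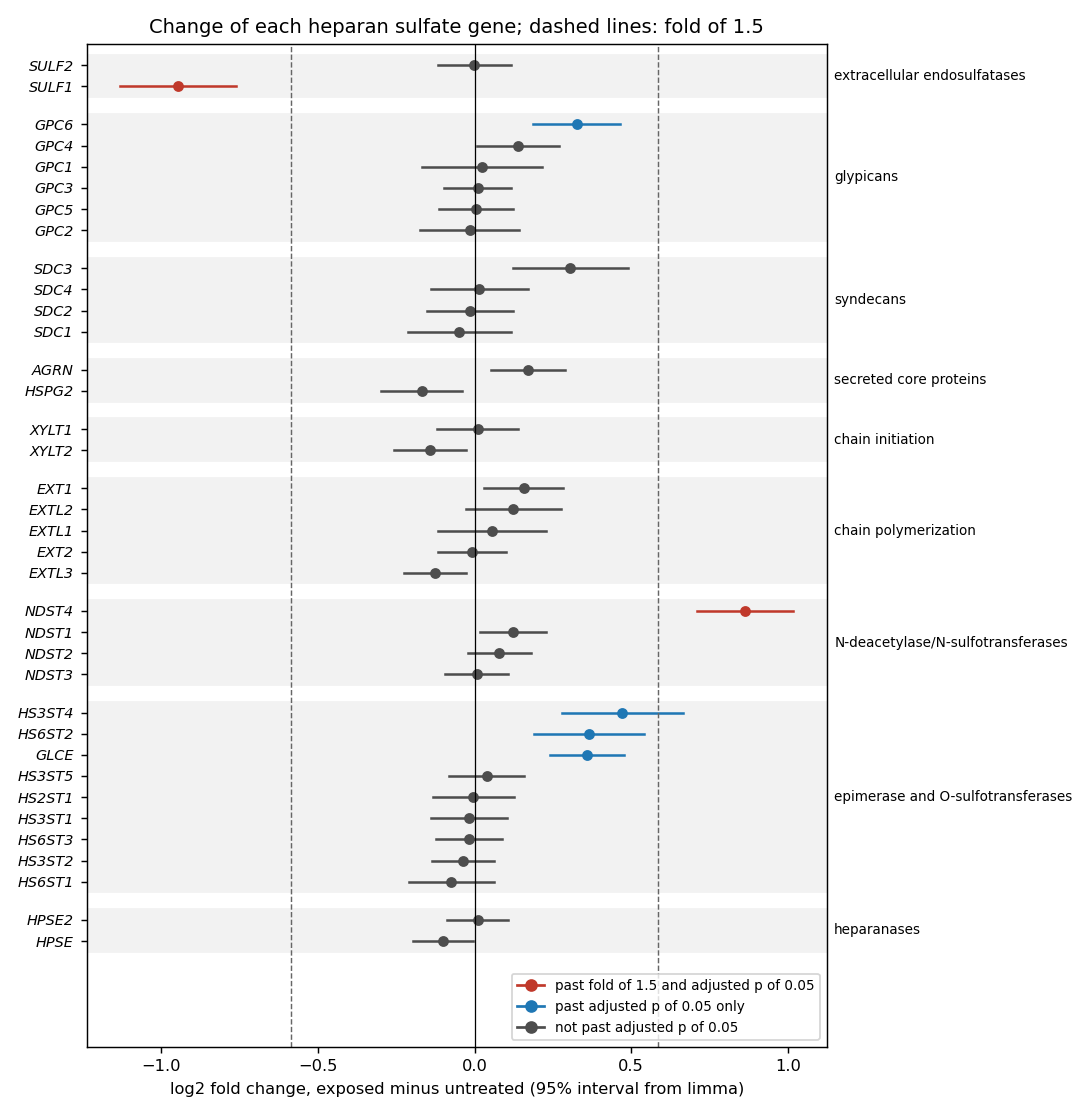
Log2 fold change (exposed minus untreated) of each of the 36 heparan sulfate genes, grouped by role, with points for the estimate and bars for the 95% interval from limma (2 arrays per group). SULF1 at -0.95 and NDST4 at 0.86 lie beyond the dashed lines of a 1.5-fold change, and HS3ST4 is the uncalled gene whose interval crosses one of them.

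The array signals of the remaining 34 genes were bounded closely. In 33 of the 34 the whole interval lay inside a 1.5-fold change in either direction (97.1%, beside 96.5% of uncalled symbols over the whole table), and the exception was HS3ST4. The 30 genes that did not pass the adjusted p had changes between -0.17 and 0.31. Signal lay above the array median on all 4 arrays for 28 of the genes. It lay below on all 4 for 8, which were GPC3, GPC5, SDC2, NDST3, HS3ST5, HS6ST3, HPSE and HPSE2. For these dim genes a change may not be visible on the array, so their intervals bound the signal and may not bound the transcript.

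**Figure D2:**
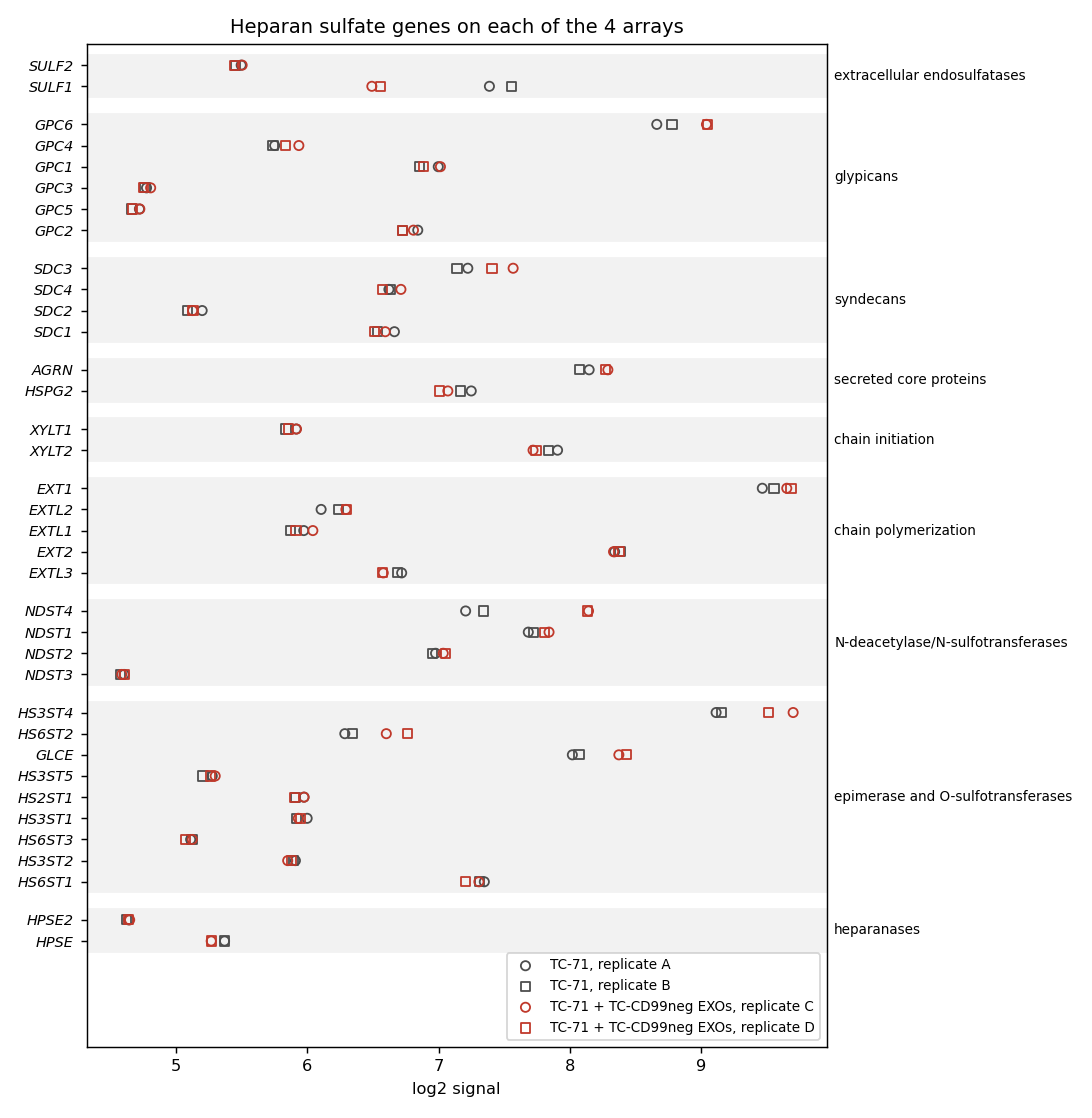
Log2 signal of the 36 heparan sulfate genes on each of the 4 arrays, with grey symbols for TC-71 (replicates A and B) and red symbols for TC-71 + TC-CD99neg EXOs (C and D). The red and grey symbols are widely separated for SULF1 and NDST4, while those of SULF2 and NDST3 lie on top of each other; positions are to be read along a row, since signals of different genes are not on a common scale.

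The extracellular endosulfatases SULF1 and SULF2 remove 6-O-sulfates from heparan sulfate at the cell surface. SULF1 signal was 7.39 and 7.55 in untreated cells and 6.49 and 6.56 after exposure. Both exposed arrays were below both untreated ones, and the gap between the groups was several times the difference within either pair. The change was -0.95 (SE 0.07, 95% interval -1.13 to -0.76, limma adjusted p = 0.00712), which left 51.9% of the untreated signal. SULF2, the other enzyme of the pair, was at 5.50 and 5.45 untreated and at 5.50 and 5.44 exposed. These values are close to the array medians (5.42 and 5.38 untreated, 5.45 and 5.44 exposed), so a small change of SULF2 may not be visible. The groups of SULF2 overlapped, and its change was 0.00 within an interval of -0.12 to 0.12. That interval does not meet the one of SULF1, although the difference between both genes was not itself tested.

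The N-deacetylase/N-sulfotransferases replace acetyl groups on glucosamine with sulfate, the step on which most later modifications depend. NDST4 signal was 7.20 and 7.34 in untreated cells and 8.14 and 8.13 after exposure, with the exposed arrays close to each other and both above the untreated ones. The change was 0.86 (SE 0.06, 95% interval 0.71 to 1.02, limma adjusted p = 0.00623), the largest rise of the 36 genes. All 4 enzymes of the family had positive estimates, but the other three were small. NDST1 was at 7.68 and 7.72 untreated and at 7.84 and 7.81 exposed, a change of 0.12 (interval 0.02 to 0.23, limma adjusted p = 0.165). NDST2 changed by 0.08 (interval -0.02 to 0.18) and the dim NDST3 by 0.01 (interval -0.09 to 0.11). The interval of NDST4 does not meet that of any of these relatives, and the differences between them were not tested.

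The sequence around the start of NDST4 is shown because it is the gene with the largest rise, beside that of NDST1, the related gene that shares one of the searched motifs and was not called. Both are RefSeq sequences of GRCh38.p14, from 250 bases before to 50 after the start, given 5′ to 3′ on the strand of the gene: NDST4 at chr4:115113571-115113870 (minus strand) and NDST1 at chr5:150497529-150497828 (plus strand). Capitals mark matches to TGANTCA, a loose search pattern for AP-1 sites that leaves the middle letter open, and to TATAAA, the TATA box. AP-1 factors mainly bind the forms with G or C in the middle. Of the marked matches only TGAGTCA in NDST1 has that form.
NDST4: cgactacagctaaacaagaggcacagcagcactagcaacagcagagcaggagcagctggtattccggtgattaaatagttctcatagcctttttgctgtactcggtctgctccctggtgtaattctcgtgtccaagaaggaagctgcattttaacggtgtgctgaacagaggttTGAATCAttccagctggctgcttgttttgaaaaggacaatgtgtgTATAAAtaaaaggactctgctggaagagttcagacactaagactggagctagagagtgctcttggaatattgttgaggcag
NDST1: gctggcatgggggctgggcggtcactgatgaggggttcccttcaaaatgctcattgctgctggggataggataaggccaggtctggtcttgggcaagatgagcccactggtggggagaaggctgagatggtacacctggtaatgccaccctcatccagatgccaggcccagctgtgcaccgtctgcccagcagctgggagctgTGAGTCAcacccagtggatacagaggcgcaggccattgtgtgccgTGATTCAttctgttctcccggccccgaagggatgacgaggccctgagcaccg
In NDST4 the TGANTCA match begins 76 bases and the TATAAA match 31 bases before the start. NDST1 holds TGANTCA matches that begin 47 and 2 bases before the start and no TATAAA. Windows of the same 300 bases were found for 30 of the 36 genes (41 windows, since some genes have several starts), and none was found for AGRN, EXT1, EXTL3, GPC3, SDC2 and SULF1. On either strand, TGANTCA, which reads the same on both, was present in 2 of the 41 windows (4.88%), those of NDST4 and NDST1, and in 7.71% of 35116 windows of all genes. TATAAA was present in 5 of the 41 (12.2%, beside 11.53%), those of NDST4, GPC6, GPC5, EXT2 and HPSE. GGGCGG, the GC box, was present in 30 of the 41 (73.2%, beside 44.95%). Of the genes past the adjusted p, HS3ST4 and GLCE had it and NDST4, GPC6 and HS6ST2 did not. EXTL1 and HS6ST3, which did not pass, lacked it too. The motifs share no letters where they match in the printed windows. These matches are letters in a window and were not measured as binding.

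The epimerase and the O-sulfotransferases act after N-sulfation. The adjusted p was passed with higher signal by 3 of these 9 enzymes, all under 1.5-fold, beside 5.84% of all symbols. With so few genes this count is a description of the list. None of the 9 was called. HS3ST4, which adds the rare 3-O-sulfate to glucosamine, was at 9.11 and 9.15 untreated and at 9.70 and 9.51 exposed. Its groups did not overlap and its change was 0.47 (interval 0.28 to 0.66, limma adjusted p = 0.0283). HS6ST2, which adds the 6-O-sulfates that SULF enzymes remove, was at 6.28 and 6.34 untreated and at 6.60 and 6.76 exposed, a change of 0.37 (interval 0.19 to 0.54, limma adjusted p = 0.0411). GLCE, the C5-epimerase that turns glucuronic into iduronic acid, was at 8.02 and 8.07 untreated and at 8.37 and 8.43 exposed, a change of 0.36 (interval 0.24 to 0.48, limma adjusted p = 0.0175). In all of these the exposed arrays were the higher ones.

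The other O-sulfotransferases gave estimates close to 0. HS2ST1, the only enzyme that 2-O-sulfates the uronic acids of heparan sulfate, changed by 0.00 (interval -0.13 to 0.13). The other 6-O-sulfotransferases, HS6ST1 and HS6ST3, changed by -0.07 and -0.02, with upper ends of their intervals at 0.06 and 0.09, below the lower end of 0.19 for HS6ST2. Of the 3-O-sulfotransferases, HS3ST1, known for making the antithrombin binding site of heparin, changed by -0.02, HS3ST2 by -0.04 and HS3ST5 by 0.04. Their highest upper end was 0.16, below the 0.28 at which the interval of HS3ST4 began. The differences between these enzymes were not tested. HS6ST3 and HS3ST5 lay below the array median on all 4 arrays, so a change of either may not be visible. The median over the 9 enzymes was 0.00, with 4 positive and 5 negative estimates.

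Chain initiation and polymerization showed no call and no gene past the adjusted p. EXT1 and EXT2 form the complex that lengthens the chain. EXT1 was at 9.46 and 9.55 untreated and at 9.65 and 9.68 exposed, without overlap, a change of 0.16 (interval 0.03 to 0.28, limma adjusted p = 0.139), the largest of its role. EXT2 overlapped between groups and changed by -0.01 (interval -0.12 to 0.10). EXTL3, which adds the first glucosamine of the chain, changed by -0.13 (interval -0.23 to -0.03, limma adjusted p = 0.138), EXTL2 by 0.12 and EXTL1 by 0.06. The xylosyltransferases attach the first sugar to the core protein. XYLT2 was at 7.90 and 7.84 untreated and at 7.72 and 7.74 exposed, below and without overlap, a change of -0.14 (interval -0.26 to -0.03, limma adjusted p = 0.141). XYLT1 changed by 0.01 and overlapped.

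Of the 12 core proteins, GPC6 passed the adjusted p and none was called. Glypicans are tied to the membrane by a lipid anchor. GPC6 was at 8.66 and 8.78 untreated and at 9.04 and 9.05 exposed, a change of 0.33 (interval 0.19 to 0.47, limma adjusted p = 0.0317), and its exposed arrays were both above the untreated ones. GPC4 was also higher on both exposed arrays, with a change of 0.14 (interval 0.01 to 0.27, limma adjusted p = 0.200). GPC1, GPC2, GPC3 and GPC5 overlapped between groups, with changes between -0.02 and 0.02. The median over the 6 glypicans was 0.02.

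Syndecans span the membrane, and SDC3 is the member known from neural tissue. SDC3 was at 7.22 and 7.14 untreated and at 7.57 and 7.41 exposed. The exposed arrays were the higher ones, and the change of 0.31 (interval 0.12 to 0.49) had an adjusted p of 0.0716 in limma, so it was not called. SDC1, SDC2 and SDC4 overlapped between groups, with changes of -0.05, -0.01 and 0.02. The matrix proteoglycans lay in opposite directions without passing the test. Agrin (AGRN), an organizer of the neuromuscular junction, was at 8.14 and 8.07 untreated and at 8.29 and 8.27 exposed, a change of 0.17 (interval 0.05 to 0.29, limma adjusted p = 0.0992). Perlecan (HSPG2), a basement membrane protein, was at 7.25 and 7.17 untreated and at 7.07 and 7.01 exposed, a change of -0.17 (interval -0.30 to -0.04, limma adjusted p = 0.129).

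Heparanase (HPSE) cuts heparan sulfate chains into fragments, and HPSE2 is a relative without that activity that can bind and inhibit it. Both were below the array median on all 4 arrays. HPSE was at 5.37 on both untreated arrays and at 5.27 on both exposed ones, a change of -0.10 (interval -0.20 to -0.005, limma adjusted p = 0.203). HPSE2 overlapped between groups and changed by 0.01.

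The call of SULF1 and that of NDST4 stood when any 1 array was left out, with changes between -1.03 and -0.86 for SULF1 and between 0.79 and 0.93 for NDST4, and with limma adjusted p of at most 0.0344 for either. The smaller changes did not keep their pass in this way. Over all rows too, a smaller share passed the adjusted p whenever 1 array was left out. With 1 array left out, GPC6 and GLCE never passed the adjusted p (0.0514 to 0.123 for GPC6 and 0.0618 to 0.0763 for GLCE). HS3ST4 passed only without replicate D (adjusted p between 0.0283 and 0.116 over the 4 fits), and HS6ST2 only without replicate C (0.0494 to 0.149). Their estimates stayed positive in all of these fits, which could not turn out otherwise, since both exposed arrays lay above both untreated ones.

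**Figure D3:**
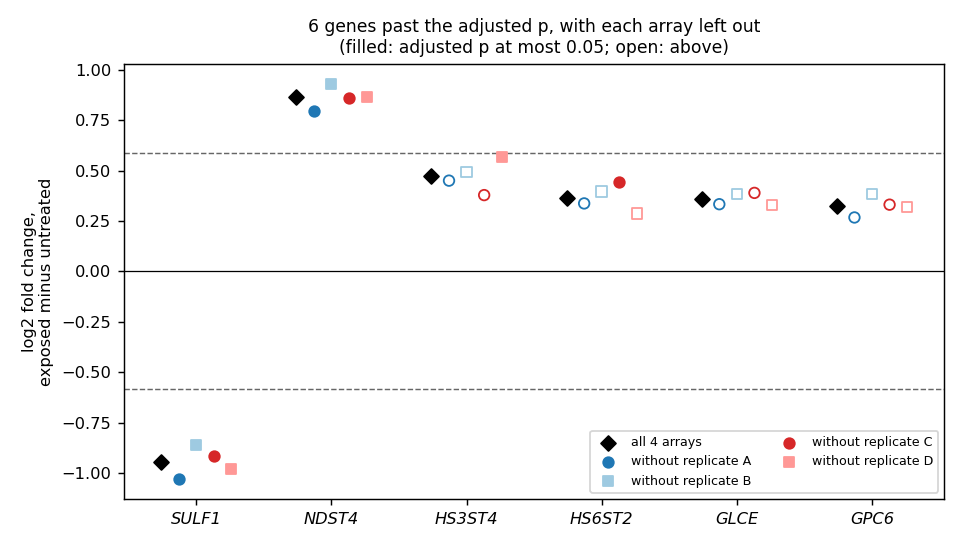
Log2 fold change (exposed minus untreated) of the 6 heparan sulfate genes past the adjusted p, from all 4 arrays (diamonds) and with each array left out in turn. Filled symbols have a limma adjusted p of at most 0.05 and open symbols a larger one; SULF1 and NDST4 are filled throughout, and GPC6 and GLCE are open whenever an array is left out.

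Genes that feed, share or use the pathway were taken from 9 lists, of which 81 genes are reported here. HGSNAT rose past both thresholds, none fell, and 80 were not called, so that 1.23% were called beside 2.1% of all symbols. The adjusted p alone was passed by 13 (16.0%, beside 12.8%), 7 with higher and 6 with lower signal. The median over the 81 was 0.00. As said above, a smaller share of all rows passed when 1 array was left out. With 1 array left out, 10 of the 13 passed the adjusted p in 0 of the 4 fits, and the exceptions were HGSNAT, UGDH and ADAM10.

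HGSNAT acetylates the terminal glucosamine of heparan sulfate in the lysosome and is mutated in a form of Sanfilippo syndrome. Its signal was 7.90 and 7.97 in untreated cells and 8.89 and 8.70 after exposure, without overlap, a change of 0.86 (SE 0.08, limma adjusted p = 0.00934), or 1.82-fold. Without replicate A its adjusted p was 0.0517 and the call was lost. Of the other lysosomal enzymes of heparan sulfate breakdown, ARSG, the 3-O-sulfatase, passed the adjusted p with 0.25 (0.0272) and GUSB, the glucuronidase, with 0.21 (0.0379). With 1 array left out their adjusted p were 0.0791 to 0.152 and 0.104 to 0.184. The remaining 4 measured, IDS, IDUA, SGSH and NAGLU, did not pass and lay between -0.09 and 0.15. Of the 7 measured genes, 3 passed the adjusted p with higher signal, beside 5.84% of all symbols, and their median change was 0.15 over all 7.

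Of the 18 measured genes of precursor supply, UGDH and SLC35B3 passed the adjusted p, both with lower signal and under 1.5-fold. These are 2 of the 18, beside 6.98% of all symbols that passed it with lower signal. The estimates of all 18 were negative for 11 and positive for 7. UGDH, which makes the UDP-glucuronic acid used by the EXT enzymes, was at 8.07 and 8.12 untreated and at 7.61 and 7.66 exposed, a change of -0.46 (limma adjusted p = 0.0102, and 0.0502 without replicate B). Both exposed arrays were the lower ones. SLC35B3, a Golgi transporter of the sulfate donor PAPS, was at 7.28 and 7.30 untreated and at 6.96 and 6.98 exposed, a change of -0.32 (limma adjusted p = 0.0151, and 0.0594 to 0.0863 with 1 array left out). The PAPS synthase PAPSS1 had a change of -0.26 (0.0523) and the nucleotide sugar transporter SLC35A3 one of 0.29 (0.0684), and neither passed. The median was -0.05 over the 11 genes of linker and UDP-sugar supply and -0.09 over the 7 measured genes of sulfate and PAPS supply.

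Of the 8 genes of core protein release, 3 passed the adjusted p with lower signal, beside 6.98% of all symbols. They were the proteases ADAM10, ADAM17 and MMP14, which can shed syndecan ectodomains. Their changes were -0.39 (0.0245), -0.29 (0.0461) and -0.31 (0.0342), all under 1.5-fold, while MMP9 changed by -0.01. With 1 array left out, ADAM10 passed only without replicate A (0.0471 to 0.105 over the 4 fits), and ADAM17 (0.0539 to 0.180) and MMP14 (0.0598 to 0.152) never did. Syntenin (SDCBP), which couples syndecan tails to exosome formation, was at 8.75 and 8.86 untreated and at 8.71 and 8.79 exposed, with overlap and a change of -0.05. Its partner ALIX (PDCD6IP) changed by 0.16 and did not pass (0.293).

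No gene was called among the 8 part-time carriers of heparan sulfate and the 15 FGF receptors and ligands that use it. The adjusted p was passed by 1 of the 8 and 2 of the 15, beside 12.8% of all symbols. Betaglycan (TGFBR3), a co-receptor of TGF-beta, passed the adjusted p with 0.28 (0.0238), and SPOCK1, a testican with the largest estimate of its list, had 0.32 and did not pass (0.0692). FGFR1, a receptor that signals with heparan sulfate as co-receptor, was at 8.03 on both untreated arrays and at 8.33 and 8.24 exposed, a change of 0.25 (0.0440). FGF13 had 0.31 (0.0253), although it belongs to the intracellular FGF homologous factors and is not known as a ligand of these receptors. With 1 array left out, the adjusted p were 0.0868 to 0.117 for TGFBR3, 0.0820 to 0.197 for FGFR1 and 0.0570 to 0.124 for FGF13. FGF2 overlapped between groups with a change of -0.02. Of the 3-O-sulfotransferases outside the 36 genes, HS3ST6 had the largest estimate at 0.07.

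Chondroitin and dermatan sulfate, the sister chains built on the same linker, gave no call among 15 measured synthesis genes and 7 core proteins. DSEL, a dermatan sulfate epimerase and in that sense a counterpart of GLCE, passed the adjusted p with 0.29 (0.0372). CSPG5, a neural core protein, was at 7.94 and 7.95 untreated and at 7.69 and 7.62 exposed, a change of -0.29 (0.0248). With 1 array left out, the adjusted p were 0.0564 to 0.146 for DSEL and 0.0789 to 0.113 for CSPG5. The medians of these lists were -0.02 and 0.02. DCN, the core protein of decorin, which carries such a chain, was among the fibroblast markers with 0.52, and the part of other cell types in these values was not tested.

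**Figure D4:**
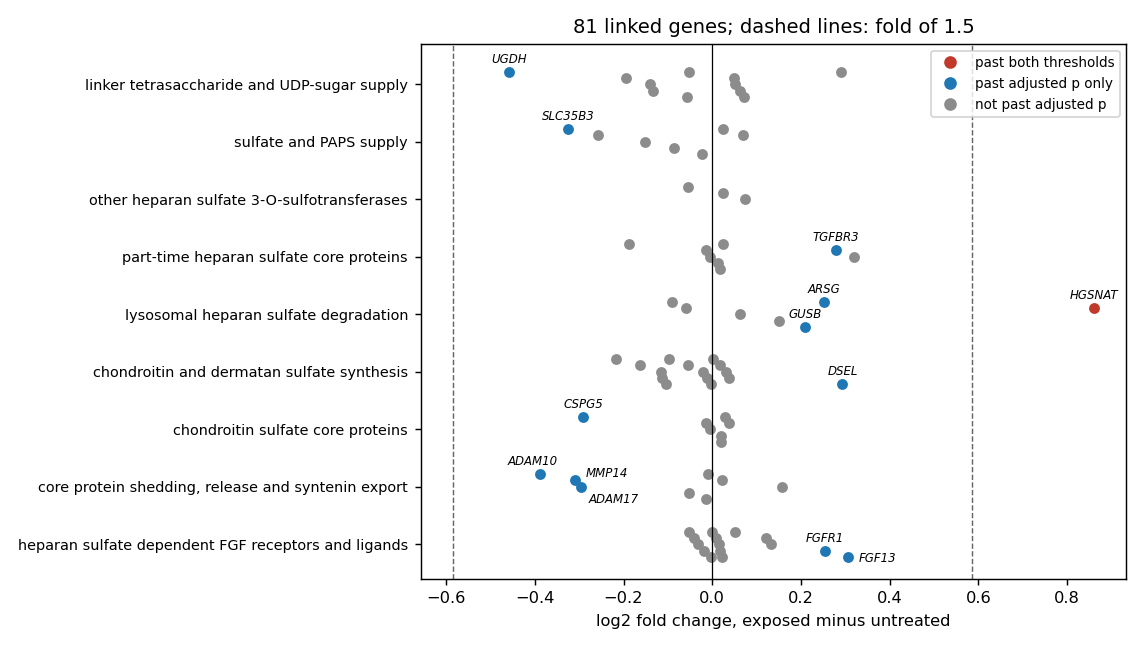
Log2 fold change (exposed minus untreated) of the 81 measured linked genes in 9 lists, 1 point per gene, with dashed lines at a 1.5-fold change. HGSNAT at 0.86 is the gene past both thresholds, and the 12 other genes past the adjusted p, named beside their points, lie between -0.46 and 0.31.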

How the data were processed

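RNA of 4 cultures was hybridized to GeneChip Human Transcriptome Arrays. In GeneSpring, the authors ran ExonRMA16 and quantile normalization, with no baseline transformation, and deposited log2 values of 67539 rows, which were used as deposited. Row identifiers have the form of junctions or probe selection regions, so a row may not cover every transcript of its gene. Names came from the platform table (23383 rows with 1 symbol, 1225 with several, 42931 with none), and old symbols of listed genes were updated through RefSeq. Differences were tested with limma 3.58.1 (lmFit, eBayes) in R 4.3.3, without covariates, on 2 residual and 2.59 prior degrees of freedom. The number of arrays limits the precision. The p-values measure the spread between these cultures only. The array build is not given in the sources used here, and only promoters carry coordinates.

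The genes and lists were chosen with earlier results of these data known. Named were all listed heparan sulfate genes and, from each linked list, called genes or the one with the largest change; others were chosen after their values were seen. Columns of the authors' own comparisons were not used. Alternatives covered the variance model, scaling, filters, thresholds, duplicate rows and each array left out.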

Additional observations from a re-analysis of the deposited data

How the results depend on the processing

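SULF1 and NDST4 kept their call in 12 of 14 alternatives each. These leave out centring on reference genes, where limma took 1 spread for all rows and its p-values were not read, and 2 settings that could not end a call (a fold of at least 1.2, and the mean of all rows of a symbol, since each gene had 1 row). Without moderation of the variances, 0 heparan sulfate genes were called in either direction, 0 passed the adjusted p and 0 linked genes were called (adjusted p 0.226 for SULF1 and 0.213 for NDST4). In that setting 0 of all 67539 rows were called and 0% passed the adjusted p, so these zeros are not particular to the listed genes. At a fold of at least 2, 0 heparan sulfate genes were called, 0 higher and 0 lower, and 0 linked genes, beside 421 of all 67539 rows. At a fold of at least 1.2, 6 heparan sulfate genes were called, 5 of them higher, and 10 linked genes, beside 5729 of all rows. At an adjusted p of at most 0.01, 2 heparan sulfate genes passed it, beside 1.78% of all rows. With each array left out in turn, 2 to 3 passed the adjusted p, and the linked genes called were 0 to 1, the loss being HGSNAT without replicate A. The lone array left in a group was then assumed to vary like the other group, and a smaller share of all rows passed the adjusted p.

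HS6ST2 did not pass the adjusted p after quantile normalization once more (0.0805), median centring (0.0767) or cyclic loess (0.109), nor GPC6 after median centring (0.0748). With dim rows left out, 28 of the 36 genes were tested and 7 passed, SDC3 being added (0.0255), beside 22.6% of all rows kept. With the adjustment over 1 row per symbol 7 passed, again with SDC3 (0.0340), beside 17.9% of all rows tested. EXT1 passed after cyclic loess (0.0404). Of the linked genes, the adjusted p was missed by GUSB, ARSG and FGFR1 under trend and robust moderation (0.0844, 0.0622 and 0.0534). It was missed by GUSB, DSEL, FGFR1 and ADAM17 after median centring (0.0799, 0.0918, 0.0752 and 0.0556), by TGFBR3, ADAM17, DSEL and MMP14 after cyclic loess (0.0742, 0.0692, 0.0646 and 0.0591), and by GUSB with dim rows left out (0.0587). SULF1, NDST4 and HGSNAT kept their direction under all 17 alternatives run, but only the settings that rescaled the arrays could have changed it. The other settings kept the values, or left out 1 array of groups that did not overlap. The called marker genes were not followed. No paired analysis was possible because the groups share no replicate letters. With 2 arrays per group, no sample could be tested as an outlier, and arrays give no depth.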

Other observations

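The table also holds rows for transcripts named after the neighbouring or overlapping loci of 2 glypicans, chosen after their values were seen. GPC6-AS1 was at 4.43 and 4.42 untreated and at 4.44 and 4.50 exposed, and GPC6-AS2 was at 4.50 and 4.45 untreated and at 4.54 and 4.55 exposed. Both lay below the array median on all 4 arrays, with changes of 0.04 and 0.07 (limma adjusted p = 0.702 and 0.433), beside 0.33 for GPC6 itself. GPC5-AS1, GPC5-AS2 and GPC5-IT1 were also below the array median on all arrays, with changes of 0.04, 0.06 and 0.02, beside 0.00 for GPC5.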
